A study of Caenorhabditis elegans with 46 samples.

Results

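Wild-type Caenorhabditis elegans of the laboratory strain N2 that had gone 24 h without food were compared with N2 worms of the same age that had kept feeding. The comparison took in 4 of the 46 Affymetrix arrays of the study, chosen by their labels: 2 of fasted and 2 of fed worms, numbered 1 and 2 in each group and paired by number. Worms of both groups were fed until day 2 of adulthood and their RNA was taken on day 3. The other groups used here were fed N2 worms at 0 h (day 2, 2 arrays), fed and fasted N2 worms at 48 h (day 4, 2 arrays each) and the fed and fasted N2 worms of a second set made with mutants (day 4, 3 arrays each, fasting time not given). No group used here carried a mutation or transgene, and food was the one labelled difference between the 24 h groups.

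A fasting worm stops filling its intestine with bacteria and turns to its own stores. Fat is freed by lipases and burned by beta-oxidation in mitochondria and peroxisomes, and lysosomes and autophagy recycle cell contents. In adult hermaphrodites, starvation is also known to slow egg production. The nuclear receptor NHR-49, the AMP-activated kinase, insulin signalling to the FOXO factor DAF-16 and, in the title of the study, a JNK and AP-1 module are regulators with known roles in this state.

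The deposited values are linear intensities, 1 per probe set and array, with a floor of 16 already in them. Array medians were 63.8 and 66.2 in fed worms and 78.2 and 75 in fasted worms. Arrays were scaled to a common distribution, and log2 values were fitted with limma over the 22 time course arrays with the replicate number as a block. A gene was called at a Benjamini-Hochberg adjusted p under 0.05 over 22548 probe sets. Replicates correlated at 0.993 (fed) and 0.987 (fasted), and arrays of different groups at 0.948 to 0.955.

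A day without food changed a large share of the measured genes. Of 17118 genes, 3558 were called higher in fasted worms (20.8%) and 3774 lower (22%), so 42.8% were called. Large changes were rarer. Those of 2-fold or more leaned upward: 1116 genes (6.52%) rose and 607 (3.55%) fell by that much. At 4-fold or more, 102 genes rose (0.596%) and 88 fell (0.514%), and of these 18 and 29 changed 8-fold or more. All 190 moved the same way in both replicate pairs, which their selection by size and test in the same pairs largely fixes. Of all genes 77.7% moved the same way in both pairs. Over all genes the median difference was -0.04 (log2), and the differences of pairs 1 and 2 correlated at 0.88, a value taken across genes and not across replicates. The counts of list members below are read against the 20.8% and 22% of all genes. These shares depended on intensity, and the lists were not matched for it. Of 4 equal groups of genes by fed intensity, the brightest (337 and above) had 18.7% higher and 38.2% lower. The dimmest had 14.2% and 3.27%. Some bright lists lay near 38.2% lower: mitochondrial ribosomal (41.1%), DNA replication (40%), one-carbon (44.4%) and lysosome and gut protease (45.5%) genes. Germline fate and oocyte genes, also bright, were 85.7% lower.

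**Figure D1:**
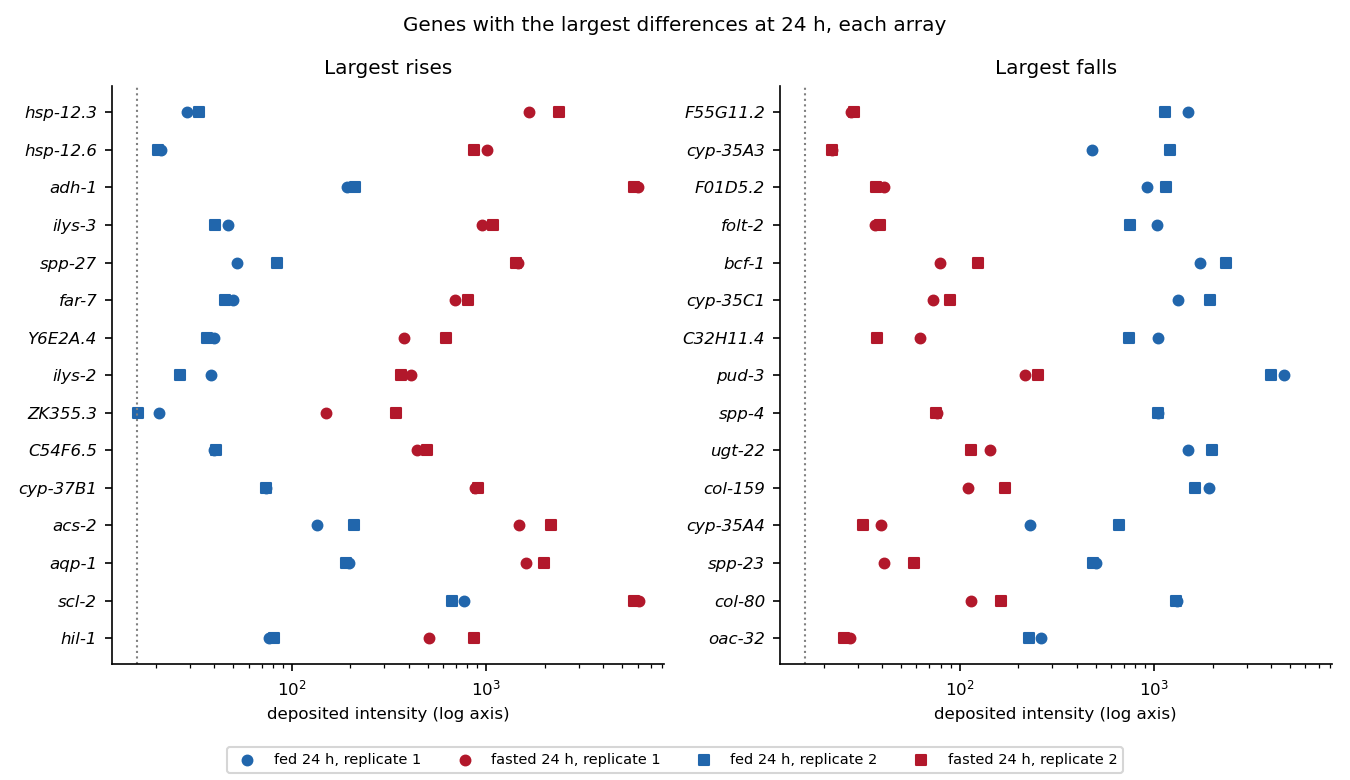
Deposited intensity on a log axis of the 12 named genes and 3 sequence-named genes with the largest rise (left) and fall (right) at 24 h, 1 point per array, with the floor of the values dotted. Genes were chosen so that the fed arrays (blue) do not overlap the fasted arrays (red).

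The steepest rises were those of a pair of small heat shock genes. hsp-12.3, a small heat shock protein gene of the alpha-crystallin family, read 29 and 33.4 in fed worms and 1650 and 2380 in fasted worms. Its relative hsp-12.6 read 21.2 and 20.6 in fed worms and 1010 and 864 in fasted worms. Both were thus close to the floor in fed worms and well clear of it in both fasted arrays. On the log2 scale they rose by 6.03 ± 0.29 and 5.59 ± 0.27 (limma, SE; adjusted p = 2.5e-11 for both). Because the fed values lie near the floor, the size depends on it: with 50 added to each value the changes were 4.69 and 3.90.

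The family did not move as 1 block. Of 10 small heat shock genes measured, 4 rose and 1 fell. hsp-16.2 and hsp-16.41, known for their induction by heat, rose by 2.22 ± 0.24 and 2.18 ± 0.23 (adjusted p = 6.6e-07 and 5.2e-07). hsp-17 fell instead, from 582 and 675 to 230 and 244, a change of -1.44 ± 0.16 (adjusted p = 7.6e-07). hsp-12.1, hsp-12.2, hsp-25, hsp-43 and sip-1 did not pass the test, with values between -0.20 and 0.30. Among 23 large chaperones 7 rose and 3 fell. The endoplasmic reticulum chaperones hsp-3 (a BiP homologue) and crt-1 (calreticulin) rose by 1.38 and 1.35, and the mitochondrial chaperone hsp-60 fell by 0.97.

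Alcohol metabolism held the rise with the smallest adjusted p. adh-1, an alcohol dehydrogenase, read 192 and 212 in fed and 6030 and 5750 in fasted worms, a log2 change of 4.82 ± 0.17 (adjusted p = 3.5e-13). On the linear scale this fitted change is a rise of 28.2 times. Of 16 alcohol and aldehyde dehydrogenase genes 7 rose and 1 fell, sodh-2 and alh-13 rising by 1.80 and 1.59 and alh-6 falling by 0.68.

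Fat burning genes moved in both directions, with large changes at single steps. acs-2, a mitochondrial acyl-CoA synthetase that feeds fatty acids into beta-oxidation and is a known NHR-49 target, read 135 and 209 in fed and 1470 and 2150 in fasted worms. It rose by 3.32 ± 0.20 (adjusted p = 6.3e-10), with no overlap between the groups. Of 27 genes of mitochondrial fatty acid oxidation 10 rose and 7 fell, with a median of 0.12. hacd-1 (a 3-hydroxyacyl-CoA dehydrogenase) and acdh-7 (an acyl-CoA dehydrogenase) rose by 1.6 and 1.2, while cpt-5, a carnitine palmitoyltransferase, fell from 119 and 120 to 40.9 and 37.9. The 14 peroxisomal genes split into 7 that rose and 6 that fell. The catalase gene ctl-2 rose by 1.51, and the other rises ran from 0.42 for acox-3 to 0.76 for ech-9. The ABC transporter genes pmp-5 and pmp-1 of the peroxisomal membrane fell by 1.13 and 1.27. Without fasted replicate 2, 3 peroxisomal genes rose and 4 fell, and without fed replicate 2, 4 rose.

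Lipid handling moved in both directions. lipl-4, a lysosomal lipase known to extend lifespan when overexpressed, rose from 39.4 and 45.6 to 164 and 165, by 1.85 ± 0.20 (adjusted p = 5.9e-07). hosl-1, the hormone-sensitive lipase homologue, rose by 1.26. Among the lipases that fell was lips-14, from 221 and 186 to 31.6 and 35.4. Of 20 lipases, 6 rose (3 without the replicate block) and 3 fell in all.

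On the synthesis side, fat-7, a stearoyl-CoA desaturase, fell from 1440 and 1140 to 388 and 182, by 2.29 ± 0.23 (log2; adjusted p = 2.8e-07). dgat-2, a diacylglycerol acyltransferase that makes storage fat, fell by 1.52 ± 0.18 (adjusted p = 2.1e-06). These were exceptions in their list. Of 21 synthesis and desaturation genes 4 rose and 4 fell, and 1 rose without the replicate block. With fed replicate 2 left out none rose and 2 fell, with fasted replicate 2 left out none rose, and with fasted replicate 1 left out 2 fell. Among lipid-binding proteins of the far and lbp classes 9 of 17 rose and 5 fell. The latter count was 3 without the replicate block, fasted replicate 2 or fed replicate 1. far-7 rose from 49.9 and 45.5 to 692 and 808, and far-3 and lbp-8 fell by 2.70 and 2.40.

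Of 5 measured yolk protein genes 1 fell. On the list of these genes and their receptor gene, 1 member was called higher without fasted replicate 1 and none with all arrays. Yolk proteins are made in the intestine and taken up by oocytes. vit-1 fell from 4860 and 6410 to 757 and 1070, by 2.54 ± 0.25 (adjusted p = 2.5e-07), and the oocyte yolk receptor gene rme-2 fell by 1.04. The values of vit-2, vit-4, vit-5 and vit-6 lay between -0.07 and 0.22 and did not pass the test. Their intensities ran from 7570 to 13800. The vit genes are close in sequence, so probe sets may share signal.

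Sugar metabolism genes moved in both directions. Of 15 genes of gluconeogenesis, the glyoxylate cycle, trehalose and glycogen, 7 rose and 3 fell, with values from -1.09 to 1.78. icl-1, which carries both glyoxylate cycle activities and lets fat be turned into sugar, read 1170 and 1250 in fed and 3850 and 4140 in fasted worms, a rise of 1.78 ± 0.16 (adjusted p = 1.1e-07). tps-1, a trehalose 6-phosphate synthase, and pck-2, a phosphoenolpyruvate carboxykinase, rose by 1.63 and 1.04. The fructose bisphosphatase gene fbp-1 fell by 0.62 ± 0.10 (adjusted p = 4e-05), and the glycogen phosphorylase gene pygl-1 fell by 0.61.

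In glycolysis 8 of 16 genes rose and 4 fell (2 without fasted replicate 1 or fed replicate 2). The hexokinases hxk-1 and hxk-2, which act first in the pathway, fell by 0.69 and 1.03. Phosphofructokinase pfk-1.1, aldolase aldo-1 and pyruvate kinase pyk-2 rose by 1.11, 1.16 and 1.08. Water and glycerol channels rose with them: 5 of 10 aquaporins were higher and 1 was lower, led by aqp-1, which read 196 and 191 in fed and 1610 and 1970 in fasted worms (3.13 ± 0.19; adjusted p = 4e-10).

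Recycling genes divided by system. Of 27 autophagy genes 15 rose and 2 fell (1 without fasted or fed replicate 1), with a median of 0.58 against -0.04 over all genes. sqst-1, the p62 homologue that delivers cargo to autophagosomes, read 1200 and 1320 in fed and 4620 and 3910 in fasted worms, a rise of 1.81 ± 0.13 (adjusted p = 7.4e-09). epg-2, another cargo adaptor, rose by 1.88, and atg-16.2, part of the conjugation machinery, rose by 1.55. atg-5 and lgg-3, which form a conjugate in that machinery, fell by 0.62 and 0.38.

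Proteasome subunits moved the other way, with 18 of 33 lower and none higher. The falls were small, with rpn-7 at -0.70, pas-4 at -0.64 and a list median of -0.28; rpn-6.2 fell furthest, by 1.22. The count depended on the fit: 11 subunits were lower without the replicate block and 10 without fed replicate 2. A list of aspartyl and cysteine proteases of the lysosome and gut also holds carboxypeptidase genes. Of its 33 genes 15 were lower (45.5%) and 6 higher (18.2%), near the 38.2% and 18.7% of the brightest genes. asp-14, an aspartyl protease, fell from 2410 and 2390 to 467 and 426. The carboxypeptidase genes ctsa-1.2 and ctsa-3.1 fell by 2.57 and 2.03. asp-6, already bright in fed worms at 6680 and 6180, rose to 11400 and 10800.

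Substrate receptors of ubiquitin ligases rose in number. F-box proteins select targets for ligases built on a Skp1 protein and a cullin, and C. elegans carries large families of both. Of 27 Skp1-related, cullin and RING genes 17 rose and 4 fell (2 without fasted replicate 2 or fed replicate 1), with a median of 0.97. skr-5 rose from 50.2 and 57.8 to 275 and 265, by 2.23 ± 0.16 (adjusted p = 5.9e-09). skr-19 and skr-20 rose by 1.64 and 1.66, whereas skr-2, one of the general Skp1 genes, fell by 0.34 and skr-11 and skr-17 by 0.89 and 0.60. Of 310 F-box genes 137 rose (44.2%) and 28 fell (9.03%). fbxb-26 rose from 109 and 103 to 483 and 415. The count of falls was 17 without fasted replicate 2 and 16 without fed replicate 1. Several of these genes are near-identical copies whose probe sets may share signal, so the members cannot be counted as separate events.

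**Figure D2:**
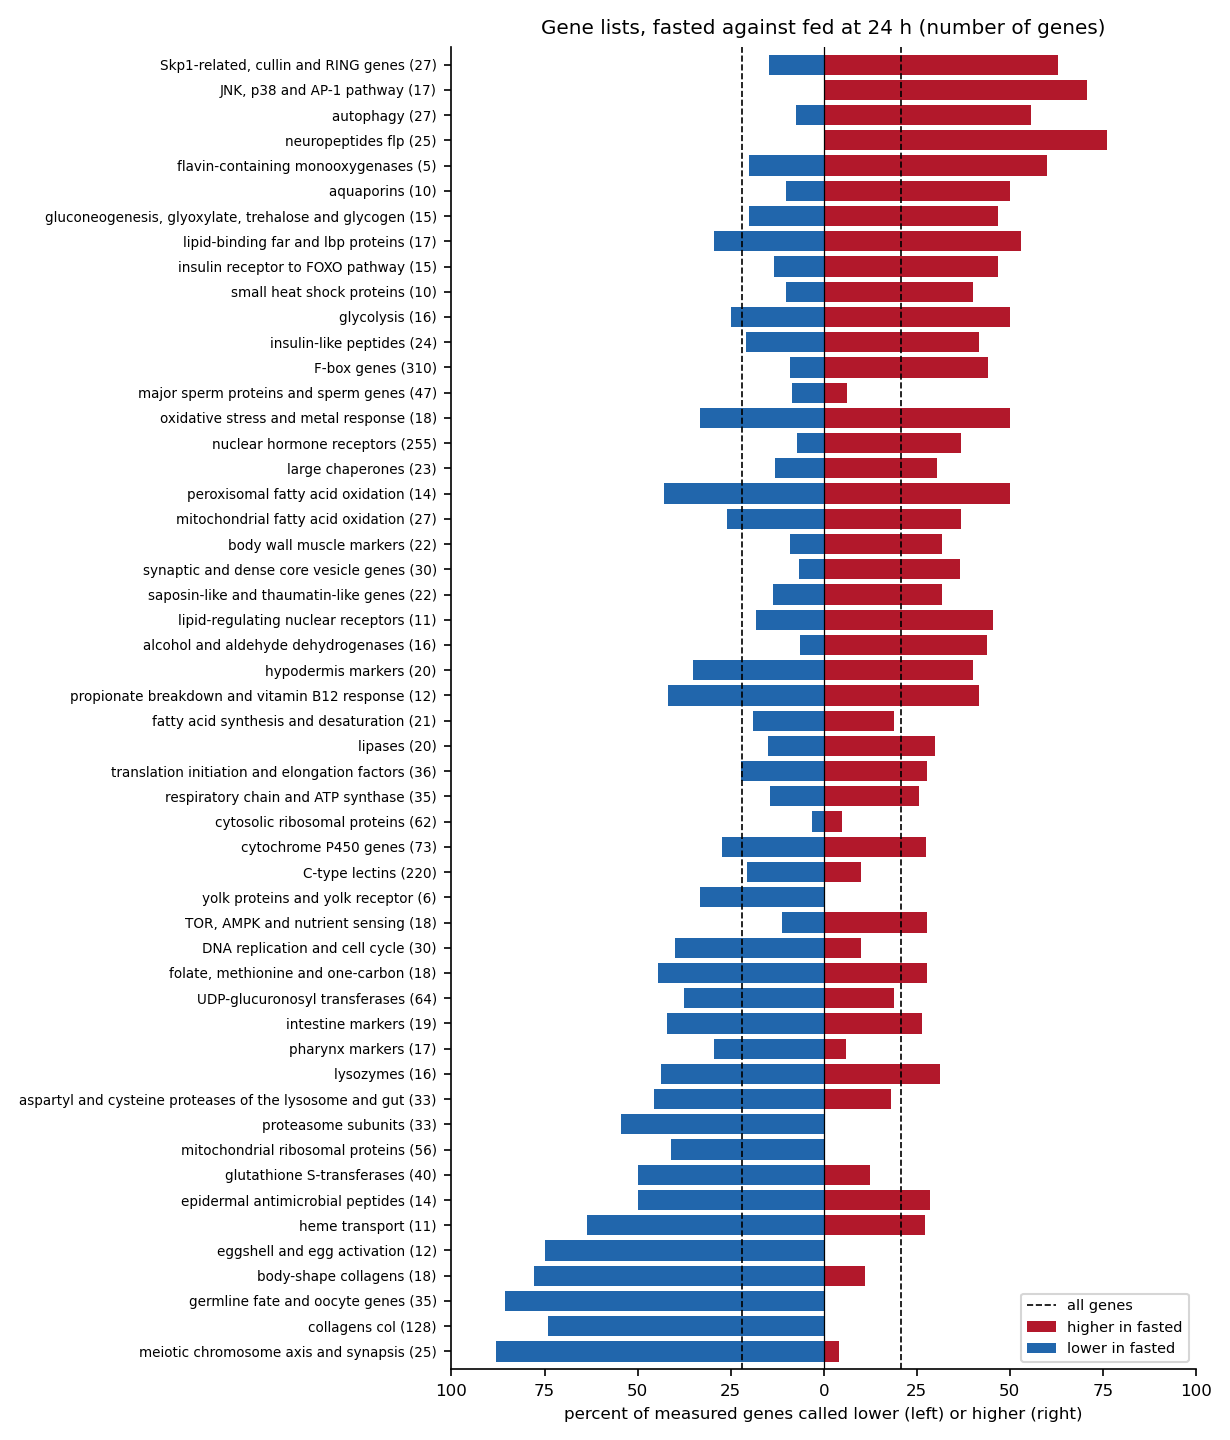
Percent of the measured genes of each list called higher (red, right) or lower (blue, left) in fasted worms at 24 h, ordered by median log2 difference, with the shares of all genes dashed (20.8% and 22%). Lists at the top hold 17 of 27 Skp1-related, cullin and RING genes higher, and those at the foot hold 22 of 25 meiotic genes lower.

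The JNK, p38 and AP-1 genes, which the title of the study names in part, leaned upward. Of 17 genes 12 rose and none fell, with a median of 0.66. tir-1, the SARM adaptor above the p38 pathway, read 636 and 719 in fed and 2550 and 2850 in fasted worms, a rise of 2.02 ± 0.13 (adjusted p = 1.7e-09). kgb-2, a relative of the JNK-family kinase gene kgb-1, rose by 1.75, and vhp-1, a phosphatase that turns off these kinases, by 1.21. kgb-1 itself read 91.5 and 89.8 in fed and 191 and 152 in fasted worms (0.66 ± 0.13; adjusted p = 0.00051). The AP-1 gene jun-1 rose by 0.41 ± 0.14 (adjusted p = 0.021), a call that 4 of the 12 alternative fits lost. An array of RNA does not measure kinase activity.

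In the insulin pathway, the probe sets of the FOXO gene daf-16 disagreed. The brightest read 516 and 557 in fed and 692 and 540 in fasted worms, so the groups overlapped (0.28 ± 0.17; adjusted p = 0.21). Of its 3 other probe sets, 1 did not pass the test (-0.09) and the rest were called lower. They changed by -0.46, from a mean of 298 to 240 (adjusted p = 0.041), and by -0.70, from 55.2 to 39.3 (adjusted p = 0.017). Of 15 pathway genes 7 rose and 2 fell: akt-2 and pdk-1, kinases below the receptor, rose by 1.54 and 0.87, and the lipid kinase gene age-1 and the phosphatase gene daf-18 fell by 0.83 and 0.51. The count of falls was 1 without fasted replicate 1 or fed replicate 2. Of 24 insulin-like peptides 10 rose and 5 fell (3 without the replicate block, fasted replicate 1 or fed replicate 1). ins-37 rose from 35.2 and 32.9 to 127 and 130, ins-35 rose by 1.80 and ins-7 fell by 1.01.

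Energy sensing moved through single subunits. aak-2, a catalytic subunit of the AMP-activated kinase, read 400 and 492 in fed and 1100 in each fasted array (1.36 ± 0.11; adjusted p = 3.3e-08). Its gamma subunit genes aakg-4 and aakg-2 rose by 2.1 and 0.97. The TOR pathway genes rict-1 and rheb-1 fell by 0.83 and 0.55. In all, 5 of 18 genes of TOR and AMPK signalling rose and 2 fell (1 without fasted or fed replicate 2).

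Of 255 nuclear hormone receptor genes 94 were higher (36.9%, beside 20.8% of all genes) and 18 lower (7.06%). Without fed replicate 2, 11 were lower. nhr-49 itself rose little, from 1110 and 1280 to 1780 and 1690 (0.59 ± 0.12; adjusted p = 0.00055). nhr-8, known for its part in sterol and toxin handling, rose by 1.52, and nhr-6 and nhr-3 by 1.69 and 1.66.

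Propionate breakdown is a pathway with 2 routes in C. elegans, a vitamin B12-dependent one and a shunt used when the vitamin is short. Of 12 genes of this list 5 rose (3 without fasted replicate 1) and 5 fell. On the shunt, acdh-1 read 4450 and 4010 in fed and 728 and 1270 in fasted worms, a change of -2.04 ± 0.22 (log2; adjusted p = 7.5e-07). Among the others, 3 shunt genes fell, hphd-1 by 1.55, ech-6 by 0.78 and hach-1 by 0.56, and the last shunt gene, alh-8, rose by 0.62. On the B12-dependent route, pcca-1 and pccb-1, the subunits of propionyl-CoA carboxylase, rose by 0.53 and 0.66. mmab-1, which makes the active form of the vitamin, fell by 0.65, and the values of mmcm-1 and mce-1, at 0.08 each, did not pass the test. nhr-10 and nhr-68, transcription factors known to switch on the shunt, rose by 0.99 and 0.61.

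One-carbon genes fell at the uptake step. folt-2, a folate transporter, read 1030 and 752 in fed and 36.8 and 38.9 in fasted worms, a change of -4.58 ± 0.31 (log2; adjusted p = 2e-09). sams-1, an S-adenosylmethionine synthetase, fell by 1.23 ± 0.20, and cth-2, a cystathionine gamma-lyase, by 0.73. pmt-1, which uses S-adenosylmethionine to make phosphocholine, rose by 1.04. Of 18 genes 5 rose and 8 fell. The count of rises was 3 without the replicate block or fasted replicate 2, and 2 without fasted or fed replicate 1.

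Of 11 heme transport and response genes 7 fell and 3 rose. Worms cannot make heme and take it up from food. hrg-11.3 fell from 942 and 1700 to 195 and 224, by 2.65 ± 0.28 (adjusted p = 5.8e-07), and hrg-7 fell by 1.87. hrg-1, a heme importer of the gut, rose by 0.45 and hrg-3, a carrier that exports heme to other tissues, by 0.98 from values near the floor.

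A cytochrome P450 gene had the largest fall among the genes with a class name that the naming rule covered. This gene, cyp-35A3, read 478 and 1200 in fed and 22 and 22.2 in fasted worms, a change of -5.13 ± 0.32 (log2; adjusted p = 9.3e-10; -3.51 with 50 added to each value). cyp-35C1 read 1330 and 1930 in fed and 73.0 and 89.5 in fasted worms (-4.43 ± 0.15; adjusted p = 3.5e-13). The fed replicates differed by over 2-fold for cyp-35A3 and cyp-35A4, and the fasted arrays were still far below both. The cytochrome P450 list as a whole was even, with 20 of 73 higher and 20 lower. cyp-37B1, from another family, rose from 73.7 and 73.4 to 873 and 909.

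Conjugating enzymes leaned down. Of 40 glutathione S-transferases 20 fell and 5 rose, and of 64 UDP-glucuronosyl transferases 24 fell and 12 rose. gst-4, a much used reporter of oxidative stress, fell from 1560 and 1400 to 206 and 217 (-2.88 ± 0.19; adjusted p = 1.4e-09). ugt-22 fell by 3.89 ± 0.16. Oxidative stress and metal genes were mixed, with 9 of 18 higher and 6 lower. The metallothionein gene mtl-1 rose from 1330 and 1080 to 5730 and 5740, and its relative mtl-2 fell from 7110 and 5790 to 3620 and 3090. The catalase gene ctl-2 rose by 1.51 and the superoxide dismutase gene sod-1 fell by 0.73. Of the 5 flavin monooxygenase genes, fmo-1, fmo-2 and fmo-4 rose and fmo-3 fell. fmo-2, known from work on longevity, read 26.5 and 26.9 in fed and 109 and 51.2 in fasted worms, and 4 alternative fits lost its call. With fed replicate 2 left out, 1 of the 5 genes was called higher.

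Defence genes held steep changes in both directions. Among 16 lysozymes 5 rose and 7 fell. ilys-3, an invertebrate-type lysozyme that digests bacteria, read 47.2 and 40.5 in fed and 955 and 1080 in fasted worms (4.60 ± 0.28; adjusted p = 4.8e-10). ilys-2 rose by 3.65. In the other direction, ilys-5 fell from 9130 and 9390 to 3450 and 2850, and lys-2 fell from 3540 and 4160 to 609 and 781. The groups did not overlap for either gene.

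Among saposin-like genes, whose products can open membranes, spp-27 rose from 52.6 and 84.2 to 1460 and 1420, while spp-4 fell from 1050 in each fed array to 76.8 and 75.8. C-type lectins fell more often than they rose, 45 to 22 of 220, in shares not above those of all genes. Without the replicate block the counts were 28 and 14, with fed replicate 1 left out 29 fell, and with fed replicate 2 left out 14 rose. clec-67 fell by 2.53 and clec-266 rose by 2.07. The epidermal antimicrobial peptides showed 7 falls and 4 rises (2 without fasted or fed replicate 2) among 14, with cnc-2 and cnc-4 lower by 1.66 and 1.41 and nlp-28 higher by 1.5.

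Cuticle collagens fell across the list. Of 128 measured col genes 95 were lower (74.2%) and none higher, with a median of -0.83. col-159 read 1920 and 1630 in fed and 111 and 171 in fasted worms, a change of -3.79 ± 0.31 (log2; adjusted p = 2.4e-08), and col-80, col-103 and col-101 fell by 3.35, 3.16 and 3.14. Without each array in turn 65 to 90 collagens were lower, the lowest count without fasted replicate 1, and 1 was higher without fed replicate 1. Many col genes are alike in sequence, so their probe sets are not independent.

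Body-shape collagens followed, with 14 of 18 lower, among them dpy-13, which fell by 1.31, and sqt-3, by 0.85. The probe sets of sqt-3 disagreed: a second one rose by 1.02, from a mean of 146 to 322 (adjusted p = 0.0001). A pair of genes on that list went the other way: dpy-14 rose from 78.0 and 75.5 to 368 and 280, and dpy-17 rose by 1.38. noah-1 and fbn-1, which encode apical matrix proteins of the epidermis, rose by 2.01 and 1.73. wrt-10, a hedgehog-related gene, rose by 2.39. The 20 hypodermis markers were mixed, with 8 higher and 7 lower (3 without fasted replicate 2 and 4 without fed replicate 2).

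Germline genes were mostly lower in fasted worms. Of 25 genes of the meiotic chromosome axis and synapsis 22 fell and 1 rose, with a median of -0.84. him-5, which acts in crossing over on X, fell from 320 and 303 to 146 and 106 (-1.52 ± 0.17; adjusted p = 1.2e-06), zim-1, a pairing centre protein gene, fell by 1.61, and syp-1 of the synaptonemal complex rose by 0.38. No meiotic gene was called higher without fasted replicate 2, fed replicate 1 or fed replicate 2. Of 35 germline fate and oocyte genes 30 fell and none rose, with a median of -0.77. pgl-1, a P granule component, read 1770 and 1580 in fed and 909 and 586 in fasted worms (-1.11 ± 0.15; adjusted p = 6.6e-06). The fate regulators fbf-1 and fog-1 fell by 1.3 and 1.42.

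Eggshell and egg activation genes fell in 9 of 12 cases. egg-1, an oocyte surface receptor gene, fell from 3900 and 4070 to 2210 and 1660, and cpg-1, a chondroitin proteoglycan gene of the eggshell, fell by 0.75, while perm-2 and perm-4, at 0.09 and -0.15, did not pass the test. DNA replication and cell cycle genes fell in 12 of 30 cases and rose in 3, with cdc-25.1 at -0.78. The sperm list differed in its counts: 3 of 47 rose and 4 fell. Leaving out fed replicate 2 lowered the germline fate count from 30 to 18 and the replication count from 12 to 5, and the counts without the replicate block were 22 and 6.

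In RNA of whole animals, fewer cells of a type and less RNA per cell cannot be told apart. The summed intensity of the 35 germline fate and oocyte genes was 66132 and 75325 in fed and 48091 and 37551 in fasted worms. That of the 25 meiotic genes was 13425 and 13805 in fed and 8985 and 7282 in fasted worms, and no gene of either list was under an intensity of 32 in any of the 4 arrays. The summed intensity of the 22 body wall muscle markers was 16151 and 18389 in fed and 20711 and 18722 in fasted worms, and for the 19 intestine markers it was 27497 and 28395 against 24355 and 21579. Of these 4 sums the germline ones fell furthest, but other germline lists differed. The sperm list sum rose, from 7010 and 6633 in fed to 9533 and 8555 in fasted worms. The sum of the DNA replication and cell cycle list was 51496 and 54700 in fed and 51414 and 41105 in fasted worms. For eggshell and egg activation genes it was 56242 and 61132 against 45742 and 37867. All sums are of deposited values before scaling. The part of the germline in the changes of other genes was not tested.

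Neuropeptide genes were mostly higher in fasted than in fed worms at 24 h. Of 25 FMRFamide-like neuropeptide genes (flp) 19 rose and none fell, with a median of 0.53. flp-16 read 113 and 125 in fed and 310 and 278 in fasted worms, a rise of 1.14 ± 0.11 (adjusted p = 3.2e-07), and flp-9 and flp-15 rose by 1.45 and 1.24. The summed intensity of the list was 2272 and 2292 in fed and 4212 and 4258 in fasted worms. Without the replicate block, and without fed replicate 2, 11 of the 25 were higher. In fed worms the list median changed by -0.26 from 0 to 24 h. Against fed worms at 0 h, 9 of the 25 were higher and 1 lower in fasted worms at 24 h (median 0.33). At 48 h 20 were higher in fasted than in fed worms, and in N2 of the mutant set 1 was. Among 30 synaptic and dense core vesicle genes 11 rose and 2 fell (1 without fed replicate 2). sbt-1, a neuropeptide processing chaperone, and ric-19, of dense core vesicles, rose by 0.96 and 1.16. tdc-1, the tyrosine decarboxylase that makes tyramine and is also expressed in the gonad sheath, fell by 1.00.

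Muscle, pharynx and intestine lists held fewer calls in 1 direction. Of 22 body wall muscle markers 7 rose (4 without fed replicate 1) and 2 fell (1 without fasted replicate 1). The myosin gene myo-3 was higher by 1.12 and mup-2, a troponin T gene, lower by 1.00. The muscle list did not lean upward in other comparisons. In fed worms its median changed by -0.33 from 0 to 24 h. Against fed worms at 0 h, 3 were higher and 5 lower in fasted worms at 24 h (median -0.2). At 48 h 5 were higher and 6 lower, and in N2 of the mutant set 0 and 7 (medians -0.15 and -0.62). Pharynx markers fell in 5 of 17 cases (3 without the replicate block or either fed array) and rose in 1, pha-4, which encodes a FOXA factor with a known role in diet restriction and rose from 62.7 and 73.9 to 193 and 196. Intestine markers were split, with 5 of 19 higher (3 without the replicate block or fed replicate 2) and 8 lower. The gut identity factors elt-7 and elt-2 and the esterase gene ges-1 rose by 1.19, 0.70 and 1.1, while the intermediate filament gene ifc-2 and dct-17 fell by 1.07 and 1.87.

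Few cytosolic ribosomal protein genes passed the test. Of 62 cytosolic ribosomal protein genes 3 rose and 2 fell, with a median of -0.03, and rpl-41.1 and rps-6 had the values 0.35 and -0.27. These directions depend on scaling: on the values as deposited none of the 62 was called higher and 7 were called lower. None was called higher without the replicate block, fasted replicate 1 or fed replicate 2, and the count of lower calls ran from 0 to 4 with single arrays left out. Of 56 mitochondrial ribosomal protein genes 23 fell (15 without fed replicate 1) and none rose, with mrps-16 lower by 0.88. Respiratory chain genes split into 9 higher and 5 lower of 35. The lower count was 3 without the replicate block and 2 to 3 with single arrays left out. ucr-2.1 rose by 1.19 and its relative ucr-2.3 fell by 0.81, and asb-1, an ATP synthase subunit gene known to be expressed in the germline, fell by 0.90.

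The shares of genes called higher and lower were described for X and the autosomes, with no test of the difference. On the X chromosome 865 of 2352 measured genes were higher in fasted worms (36.8%) and 285 lower, with a median of 0.13. On the autosomes 2681 of 14715 were higher (18.2%) and 3483 lower (23.7%), with a median of -0.06. Each autosome taken alone had between 16.8% and 21.1% of its genes higher and between 19.4% and 27% lower. Among the brightest of 4 equal groups of genes by fed intensity, 149 of 273 X genes were higher (54.6%) against 641 of 3993 autosomal genes. In the dimmest group the shares were 20.5% and 13.4%. The split was present in other arrays too: at 48 h 36.2% of X genes and 18.0% of autosomal genes were higher, and in N2 of the mutant set 13.9% and 6.78%. In the mutant set X genes were also more often lower, at 6.12% against 4.55%. In C. elegans, genes with germline expression are known to be scarce on X, and the meiotic and germline fate lists fell at 24 h. At 48 h 23 of the 25 meiotic and 25 of the 35 germline fate and oocyte genes were lower. In N2 of the mutant set 1 and 7 were lower, with medians of -0.25 and -0.27, beside 4.76% of all genes lower. The part of germline genes in the X difference was not tested.

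**Figure D3:**
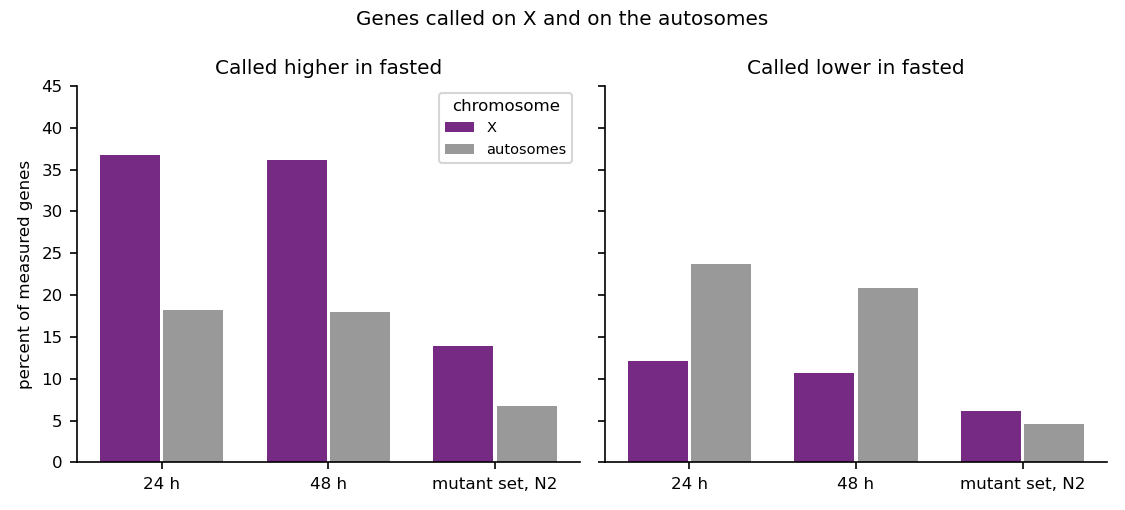
Percent of measured genes called higher (left) or lower (right) in fasted worms, for 2352 genes on X and 14715 on the autosomes, at 24 h, at 48 h and in N2 of the mutant set. At 24 h 36.8% of X genes and 18.2% of autosomal genes were higher.

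Fed worms also changed over the day. From 0 to 24 h, 175 genes rose in fed worms (1.02%) and 81 fell (0.473%). This count depended on the fit: over probe sets it was 206 higher and 109 lower, and without the replicate block 62 and 36. Of the 175 genes that rose with a day of feeding, 79 were lower and 64 higher in fasted than in fed worms at 24 h. Of the 81 that fell, 37 were higher and 18 lower. Set against fed worms at 0 h, fasted worms were lower for 31 of the 175 genes, not called for 43 and higher for the rest, with a median of 0.66. For the 81 genes they were lower for 45, higher for 11 and not called for 25. Both comparisons use the fed 24 h arrays, so their directions are tied in part.

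Some of the genes with the largest rise in fed worms were low in fasted worms. cdr-1, a cadmium-responsive gene, read 172 and 168 in fed worms at 0 h, 995 and 1050 in fed worms at 24 h and 145 and 164 in fasted worms. far-3 read 475 and 561, then 2900 and 3330 in fed and 319 and 685 in fasted worms. nta-1 read 80.6 in the lower array at 0 h, then 505 and 504 in fed and 109 and 155 in fasted worms. Against fed worms at 0 h the differences of fasted worms were -0.40 ± 0.19, -0.06 ± 0.25 and 0.15 ± 0.16 for cdr-1, far-3 and nta-1, and none passed the test (adjusted p = 0.09, 0.88 and 0.48). Against fed worms of the same age they were -2.81, -2.70 and -2.06.

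The reverse was seen for gpx-3, a glutathione peroxidase gene, which read 72.0 and 73.7 at 0 h, 26.3 and 27.4 in fed worms at 24 h and 65.9 and 60.4 in fasted worms. clc-11 and amt-4 fell over the day in fed worms by 1.36 and 1.48. They were also lower in fasted worms than at 0 h, by 1.03 and 1.3 on the log2 scale, and their differences between fasted and fed worms at 24 h, 0.33 and 0.17, did not pass the test. Over all genes, 3669 were higher (21.4%) and 4063 lower (23.7%) in fasted worms at 24 h than in fed worms at 0 h.

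**Figure D4:**
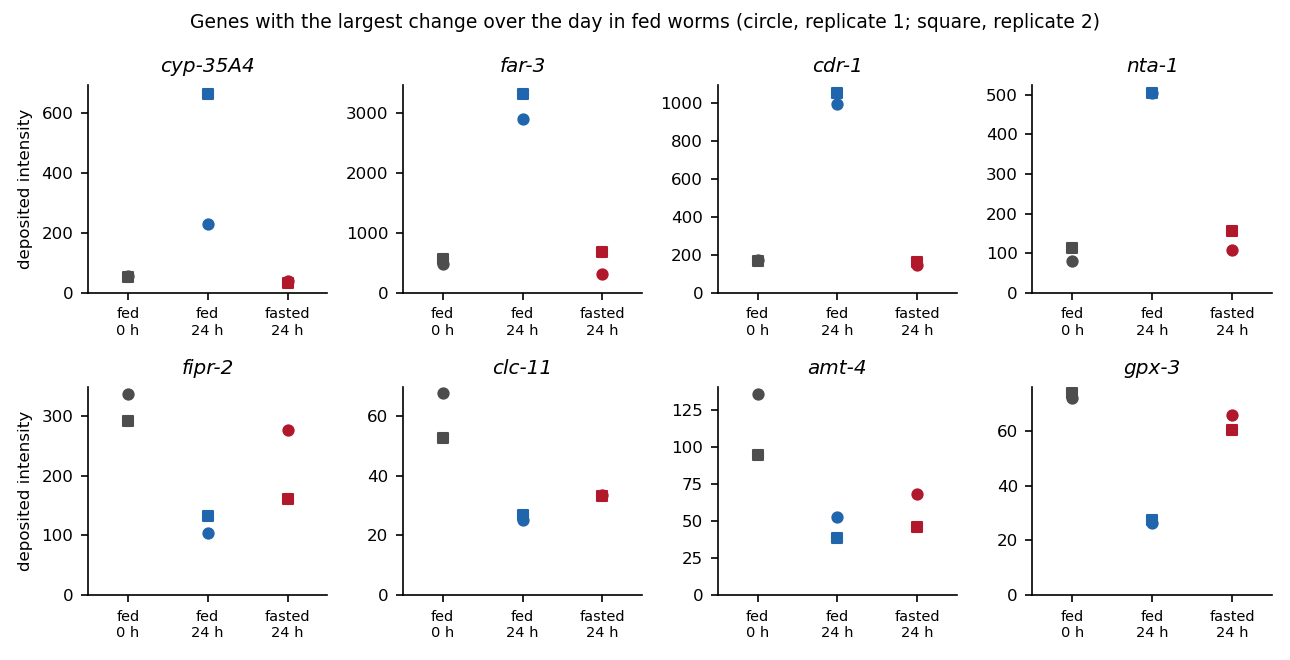
Deposited intensity (linear axis from 0) in fed worms at 0 h, fed worms at 24 h and fasted worms at 24 h of the 8 genes with the largest change over the day in fed worms, 1 point per array. The fasted arrays of cdr-1, far-3 and nta-1 stand near those at 0 h, and those of clc-11 and amt-4 nearer to fed worms at 24 h.

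The 24 h differences were set beside those of other arrays. At 48 h, with its own fed and fasted arrays, 20.5% of all genes were called higher and 19.5% lower. There 2884 of the 3558 genes higher at 24 h were also called higher, which is 81.1% of the 24 h list and 82.1% of the 48 h list. Of the 3774 lower genes 2659 were lower again (70.5% and 79.7%). All 102 genes that rose and all 88 that fell at least 4-fold were called the same way. The difference between the 2 responses was itself called for 3 genes higher and 21 lower, or 0.0175% and 0.123% of genes.

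Some of these genes moved further in the same direction and others turned back. ctsa-1.2, a carboxypeptidase gene, read 2550 and 2440 in fed and 456 and 372 in fasted worms at 24 h, and 134 and 132 in fasted worms at 48 h. The fall deepened from -2.57 to -4.77, a difference of -2.2 ± 0.19 (adjusted p = 3e-06). ilys-5 deepened from -1.52 to -3.56. dbd-2 had its larger rise on the first day: it read 131 and 120 in fed and 777 and 564 in fasted worms at 24 h, against 161 and 247 in fed and 394 and 380 in fasted worms at 48 h. ins-22, an insulin-like peptide gene, rose by 0.73 at 24 h and by 1.83 at 48 h. For col-183 and nas-11 the fed arrays moved as well. col-183 read 108 and 106 in fed worms at 24 h and 541 and 417 at 48 h, with fasted arrays of 47.4 and 65.1 and then 38 and 48.7.

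In N2 worms of the mutant set, 92 of the 102 genes that rose at least 4-fold at 24 h were called higher, and 66 of the 88 that fell were called lower. In that set 7.78% of all genes were called higher and 4.76% lower. Over all called genes, 1114 of 3558 higher genes were higher there (31.3% of the 24 h list, 83.7% of the mutant set list) and 545 of 3774 lower genes were lower (14.4% and 66.9%). The difference of the responses, in a fit of all 46 arrays that was added after the values were seen, was called for 498 genes (2.91%) more positive in the mutant set and 401 (2.34%) more negative. Worms of the mutant set were a day older and were handled as a set of their own, so age, fasting time and set cannot be told apart.

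Several steep falls of the first day were not seen in that set. cyp-35A3 changed by -0.12 there, from 16, 31.6 and 17.7 in fed worms to at most 20.8 in the 3 fasted arrays, so that its fed arrays were already near the floor (difference from 24 h of 4.99 ± 0.68; adjusted p = 2e-05). pud-3 read 533, 548 and 247 in fed and 182, 751 and 438 in fasted worms of the mutant set, against 4660 and 4010 in fed and 218 and 253 in fasted worms at 24 h (difference 4.07 ± 0.65; adjusted p = 0.00021). For both genes the fed levels of the sets differed more than the fasted levels. The shunt gene acdh-1 changed by 0.62 in the mutant set against -2.04 at 24 h (difference 2.67 ± 0.46; adjusted p = 0.00069), and gst-4 by 0.32 against -2.88 (difference 3.24 ± 0.41; adjusted p = 8.8e-06). pmp-5 was called in opposite directions, -1.13 at 24 h and 2.44 in the mutant set (difference 3.54 ± 0.39; adjusted p = 6.8e-07). hsp-12.3 rose in both, by 6.03 and 3.50. C54F6.5 rose by 3.60 at 24 h and by 0.86 in the mutant set, a difference of -2.60 ± 0.30 (adjusted p = 1.8e-06).

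**Figure D5:**
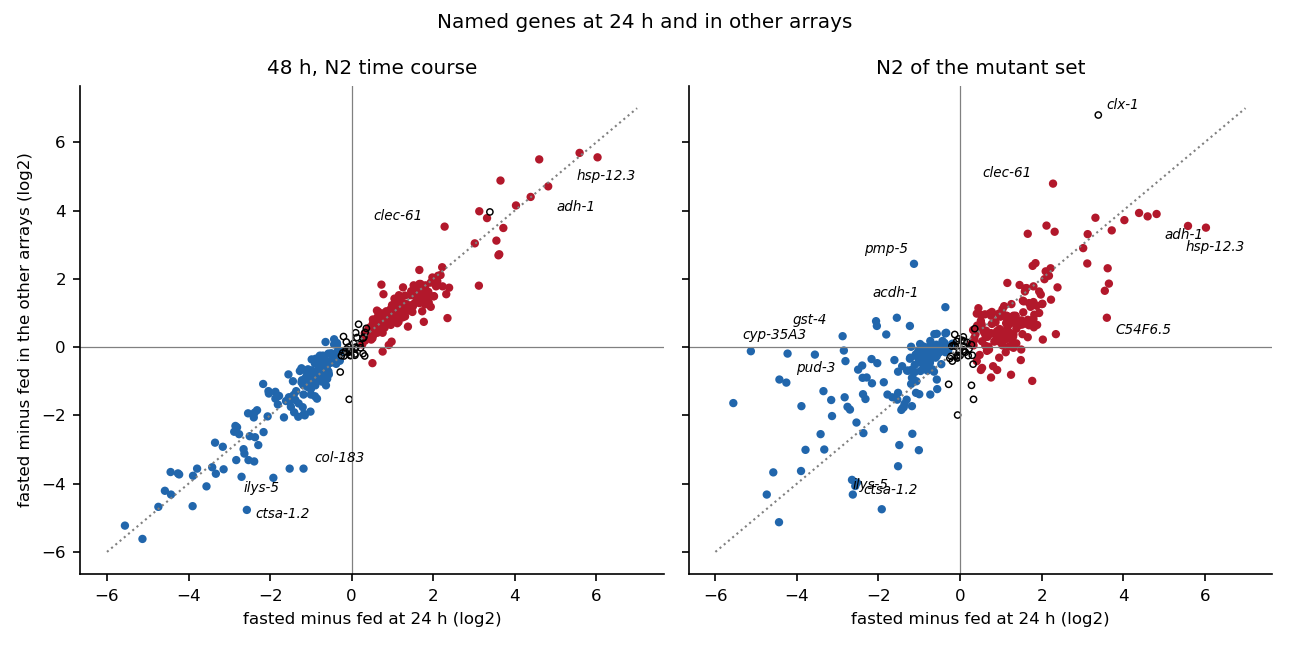
Log2 difference of fasted minus fed worms at 24 h (x) against that at 48 h (left, y) and in N2 of the mutant set (right, y) for the 347 genes named by rule, red and blue where called higher or lower at 24 h and open where not, with a dotted line of equal change. Points lie close to the line at 48 h and spread in the mutant set, where cyp-35A3 is at -0.12 and pmp-5 at 2.44.

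The replicates disagreed on 1 gene far more than on any other gene with an intensity of 100 or more. clx-1 read 48.5 and 59.1 in fed worms and 45.9 and 7300 in the fasted replicates, so the pairs gave -0.20 and 6.98 and the groups overlapped. Its difference of 3.39 ± 1.56 did not pass the test (adjusted p = 0.088). In N2 worms of the mutant set it was 6.80. Of 8314 genes at that intensity, 5 had pair differences that lay more than 2 apart (log2): clx-1, rrn-3.56, fbxb-86, H39E23.3 and D1086.9, which apart from clx-1 were picked out after their values were seen.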

How the data were processed

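RNA was measured on 46 arrays, and the 4 N2 arrays at 24 h were compared. The authors extracted RNA with Trizol, and 100 ng of it were labelled by the Affymetrix 2-cycle assay, per the labels' protocols. The authors deposited linear intensity values, made with PLIER per the submitters' processing notes, whose version and normalization are not given in the sources used here. The series' design text gives 2 independent experiments for the time course and 3 for the mutants.

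Of 22625 probe sets, 77 controls were left out and 22548 tested. A platform table gave 20766 of these 1 symbol, 887 several symbols, and did not list 895; 20701 of the single symbols were found in the RefSeq gene table. A gene was represented by its probe set with the highest mean in the time course (17118 genes). Of the genes reported as called, dgat-2, elt-2, fmo-4, nhr-49, pdk-1, pfk-1.1, rict-1 and tdc-1 also had a dimmer probe set that did not pass the test. A symbol can be old, and overlapping probe sets can share signal.

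The log2 of the deposited intensity, with nothing added, was quantile scaled within the 22 time course arrays and fitted with limma 3.58.1 in R 4.3.3 (lmFit, 1 coefficient per group, replicate number as a block, then eBayes with an intensity trend). There were 10 residual degrees of freedom, and all 11 groups shared the spread. The mutant set (24 arrays) was fitted alone in the same way. Tests were two-sided with Benjamini-Hochberg adjustment over all probe sets. The number of arrays limits the precision: exact permutation of 2 arrays against 2 cannot reach 0.05 and was not used. On simulated data for the 24 h comparison, the fit called 99% of log2 changes of 1 and 100% of changes of 2. These data had independent normal noise of the fitted spreads, 100 changes of each size among 22548 probe sets and no scaling step. Far more genes were called in the real arrays, so these shares are not the sensitivity there.

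To check the pairing, each array was taken as its deviation from the mean of its group. For arrays with the same number these correlated at 0.429 between fed and fasted worms at 24 h, and at 0.272 to 0.618 over all 55 pairs of groups, so the numbers were taken to pair the samples. Counts that moved by over 1.5 times without the replicate block, or with a 24 h array left out, are given beside the list.

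Genes were named by a rule: the 12 highest and 12 lowest called gene-class symbols without overlap and with a mean of at least 100 in the higher group, 3 and 3 sequence names, the risen and the fallen members with the lowest adjusted p (at most 3 each way) in each of 52 lists and all members of lists of at most 14, the extremes of the 48 h difference and of the fed day, and kgb-1, jun-1, daf-16 and clx-1. Members and lists were chosen with earlier results of these data known. The lists overlap in part and were not tested as sets. The difference between the mutant set and 24 h was added after the values were seen. Promoter sequences were not used here.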

Additional observations from a re-analysis of the deposited data

Results flagged for a closer look

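The response to fasting differed between 24 and 48 h by the interaction contrast of limma for 7 genes named by rule, all at an adjusted p under 0.05. col-183 differed by -2.38, ctsa-1.2 by -2.2, ilys-5 by -2.03, dbd-2 by -1.5 and nas-11 by -1.47 (log2, 48 h response minus 24 h response). ins-22 differed by 1.1 and pugs-8, which fell by 2.17 at 24 h and by 1.08 at 48 h, by 1.09. For col-183 and nas-11 fed worms rose between 24 and 48 h, from 108 and 106 to 541 and 417 and from 1040 and 961 to 1550 and 1620.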

How the results depend on the processing

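Of 347 named genes 314 were called at 24 h, and 249 of these kept their call and direction in each of the alternative fits that could be made for them; none was called in the opposite direction. The probe set counts at 24 h, 4616 higher and 4979 lower, were 3721 and 3553 without the replicate block, 5166 and 4017 on the values as deposited, 3286 and 3089 with all 46 arrays, and 3539 to 3976 and 3415 to 4012 with single arrays left out. The medians of the cytochrome P450 list (-0.04) and the respiratory chain list (0.01) turned sign, to 0.04 and -0.02, on the values as deposited. Depth is not defined for arrays, and sizes near the floor of 16 are approximate.

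The other counts moved more. Fed worms from 0 to 24 h gave 206 higher and 109 lower, against 62 and 36 without the replicate block, 45 and 17 with all 46 arrays, 344 and 173 with only the arrays compared, 58 lower on the brighter part, and 65 to 166 and 45 to 78 with single arrays left out. The 48 h difference gave 3 higher and 27 lower probe sets, against 0 and 9 without the replicate block, 0 and 0 by limma with all arrays (where 425 had a raw p under 0.05), 1 and 14 with the arrays compared, 9 higher with 50 added, and 0 to 4 and 13 to 37 with single arrays left out. N2 of the mutant set gave 1667 and 1037, against 747 and 474 without the replicate block, 2837 and 2173 with the arrays compared, 1645 lower with all arrays, and 1002 to 1445 and 665 to 945 with single arrays left out. Lower calls at 48 h, 4471, were 2832 with all arrays. The cause of these moves was not tested.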
